A study of Mus musculus with 2 samples.

Results

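The Mir200 family, the Mir183 cluster and the skin microRNAs Mir203 and Mir205 were examined in whole hearts of newborn mice. The 10 genes are Mir200a, Mir200b, Mir429, Mir200c, Mir141, Mir203, Mir205, Mir96, Mir182 and Mir183, chosen by name as microRNAs known from epithelia and sense organs, out of 1973 microRNA genes counted. Small RNA of hearts from B6NCrl pups, a C57BL/6N substrain, was sequenced at postnatal day 0, with molecules under 30 nt taken from total RNA. The labels give 1 group of 2 hearts without any treatment or mutation: replicate 2 is the heart of pup 3 and replicate 1 the heart of pup 1, with 1 library each and sex not recorded. The labels describe each as a single heart of its own pup but give both the same donor identifier. They were taken as separate animals, and if that were wrong, each SD and ratio between hearts would be technical. The design holds no second condition, so it describes levels, ratios between neighbouring genes and the spread between 2 animals. The libraries held 7630427 counts on the strand of the genes in replicate 2 and 6373797 in replicate 1. Levels are given as CPM, counts scaled to a total of 1000000 per library, and 3 counts, the limit that a count of 0 allows, are 0.393 CPM in replicate 2 and 0.471 CPM in replicate 1. Intervals and limits cover counting error only, and reads without molecular identifiers are not independent molecules. The cardiac muscle microRNAs Mir208b, Mir208a and Mir499 were taken as markers of the labelled tissue and were high in both libraries. Mir208b had 104900 ± 4545 CPM, Mir208a 13700 ± 2426 CPM and Mir499 4977 ± 183 CPM (SD, n = 2 hearts). Not all muscle microRNAs were high: Mir1a-1, Mir133a-1 and Mir133a-2 had means of 8.89, 8.24 and 2.08 CPM. Reads with several matches in the genome are left out of these counts, so levels of genes with copies can be too low.

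MicroRNAs are cut from hairpin precursors and guide repression of messenger RNAs, mainly through the seed, bases 2 to 8 of the mature strand. The Mir200 family is known for holding cells in an epithelial state: its members repress Zeb1 and Zeb2, transcription factors that shut off E-cadherin, and these factors in turn repress the Mir200 genes. Mir203 restrains the stem cell factor p63 in the skin, Mir205 is a microRNA of basal layers of stratified epithelia, and the Mir183 cluster is known from hair cells of the inner ear, photoreceptors and other sensory cells. Whole hearts include the epicardium, an epithelial sheet on the surface, beside muscle, vessels and connective tissue. Which cells of the heart held these microRNAs was not measured.

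The mature sequences below show how the genes are related, since the seed sets which targets a family shares. They are the arms known as the main product of each hairpin, from RefSeq (GRCm38.p6, the assembly behind mm10), where all 10 genes were found. Capitals mark the seed. The tables give 1 count per hairpin gene, so the arms were not counted apart.
miR-200b-3p: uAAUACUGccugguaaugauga
miR-200c-3p: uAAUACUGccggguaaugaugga
miR-429-3p: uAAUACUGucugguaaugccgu
miR-200a-3p: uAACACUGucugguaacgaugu
miR-141-3p: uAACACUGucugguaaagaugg
miR-203-3p: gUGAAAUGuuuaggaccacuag
miR-205-5p: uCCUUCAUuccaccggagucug
miR-96-5p: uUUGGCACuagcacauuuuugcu
miR-182-5p: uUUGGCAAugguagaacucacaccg
miR-183-5p: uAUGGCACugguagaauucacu

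By seed, the Mir200 family falls into a group of 3 (Mir200b, Mir200c and Mir429) and a pair (Mir200a and Mir141), and no other mature microRNA among the 1679 of the RefSeq table has either seed. Positions are counted from 1 at the 5′ end, with the base of the first-named microRNA first. The seeds of miR-200b-3p and miR-200a-3p differ only by U4C. Outside the seed, miR-200b-3p and miR-200c-3p differ by U11G and A22G over the 22 bases compared, and miR-200a-3p and miR-141-3p by C17A and U22G. Both seed groups are split between the 2 Mir200 loci, so each locus carries both seeds. In the Mir183 cluster the 3 seeds differ, although miR-96-5p and miR-182-5p share the first 7 bases and part at C8A, and miR-96-5p and miR-183-5p part at U2A. Over the whole strand miR-182-5p is closer to miR-183-5p, with 18 of 22 bases identical, than to miR-96-5p, with 12 of 23. The seed of miR-96-5p is found in 1 other microRNA of the table, miR-1271-5p, whose gene was not analysed here. The seeds of miR-203-3p, miR-205-5p, miR-182-5p and miR-183-5p each occur once.

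The Mir200b, Mir200a and Mir429 genes lie on the minus strand of chromosome 4 (mm10), at 156055681 to 156055750, 156054896 to 156054985 and 156053905 to 156053987. In GENCODE M21 all 3 lie in an intron of the coding gene Ttll10 on the same strand, and Mir429 also overlaps an exon of the noncoding transcript Gm13648. Mir200c and Mir141 lie 336 nt apart on the minus strand of chromosome 6, at 124718322 to 124718390 and 124717914 to 124717985, in an intron of the noncoding gene Gm15884. Mir183, Mir96 and Mir182 are intergenic on the minus strand of the same chromosome, at 30169668 to 30169737, 30169446 to 30169551 and 30165918 to 30165992. Mir203 is intergenic on the plus strand of chromosome 12, at 112130880 to 112130955. Mir205 lies on the minus strand of chromosome 1, at 193507463 to 193507530, in an exon of the noncoding gene 4631405K08Rik.

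All 10 genes were detected, with 10 or more counts in both hearts, where 358 of the 1973 genes counted, or 18.1%, were. They were low. Their sum was 344 CPM in replicate 2 (95% interval by the exact Clopper-Pearson method, 331 to 358) and 369 CPM in replicate 1 (354 to 384), a mean of 356 ± 17.1 CPM (SD, n = 2), or 0.0344% and 0.0369% of the counts. Mir208b alone had 314 times the sum of all 10 in replicate 2 and 276 times in replicate 1. The median of the 10 genes was 15.7 CPM, beside 64.6 CPM over the 358 detected genes, and 2 of the 10, Mir203 and Mir429, were above that median. None of the 10 was at 0, neither the epithelial markers (the Mir200 family, Mir203 and Mir205) nor the sensory Mir183 cluster. Some microRNAs known from other tissues were above 0 too. Mir302a, of an embryonic cluster, had a mean of 60.4 CPM and Mir215, known from gut and kidney, 607 CPM, while Mir449b and Mir449c had 0 counts. A count above 0 does not show which tissue or cell a microRNA came from. In whole tissue, few cells with a high level and many cells with a low level of a microRNA cannot be told apart.

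**Figure D1:**
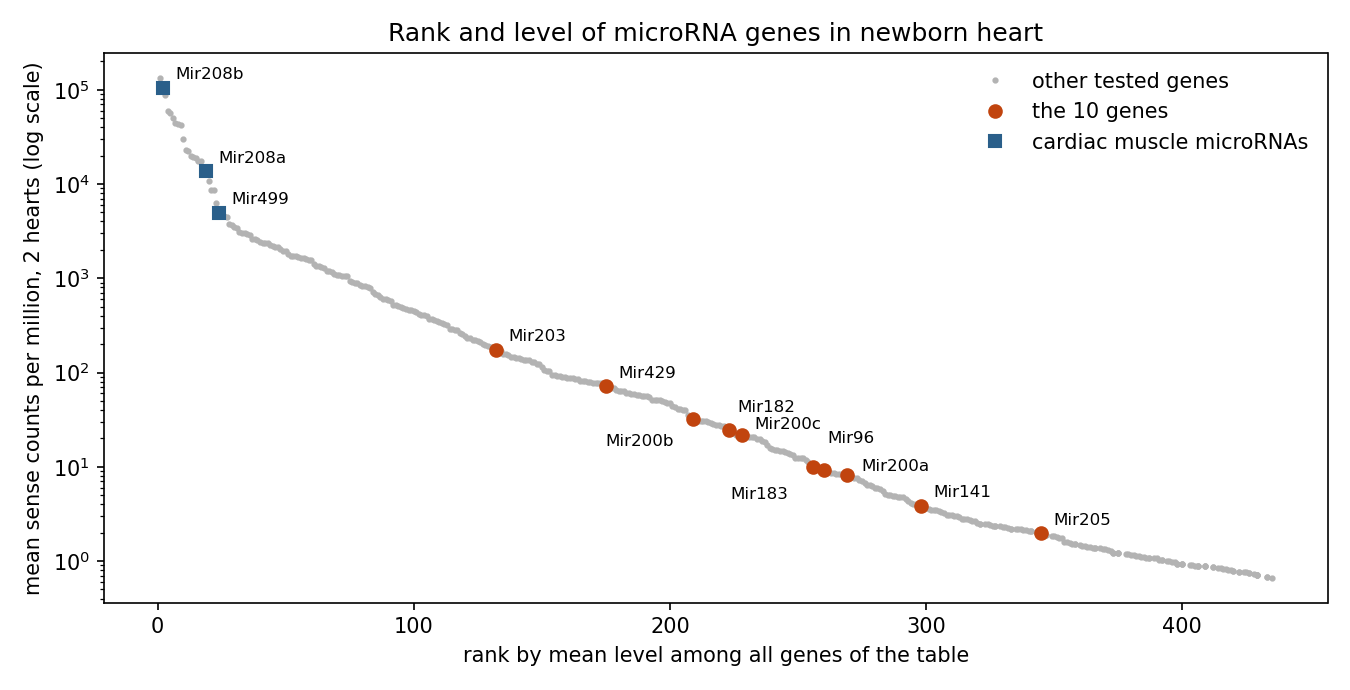
Mean level in CPM (log axis) of the 435 genes tested between hearts against rank among all genes of the table. Orange circles are the 10 genes and blue squares the cardiac muscle microRNAs Mir208b, Mir208a and Mir499. The 10 genes run from rank 132 (Mir203) to rank 345 (Mir205), while Mir208b, Mir208a and Mir499 hold ranks 2, 19 and 24.

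Mir203, the microRNA of differentiating skin cells, was the most abundant of the 10. It had 1312 counts, or 172 CPM, in replicate 2 and 1125 counts, or 177 CPM, in replicate 1 (174 ± 3.22 CPM, SD, n = 2). It gave 48.9% ± 1.44 of the counts of the 10 genes and ranked 133 in replicate 2 and 131 in replicate 1. Both hearts had nearly the same level, and it was 2.44 times that of Mir429, the next gene. Mir205, the basal cell microRNA, was the lowest of the 10, with 16 counts, or 2.10 CPM, in replicate 2 (exact 95% interval 1.20 to 3.41) and 12 counts, or 1.88 CPM, in replicate 1 (0.973 to 3.29). These values are above the limit that a count of 0 allows, but rest on few reads. Of the summed counts of these skin microRNAs, Mir205 gave 1.20% in replicate 2 and 1.06% in replicate 1.

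The Mir200 family as a whole had 126 CPM in replicate 2 (exact 95% interval 118 to 134) and 148 CPM in replicate 1 (138 to 157), a mean of 137 ± 15.2 CPM (SD, n = 2), which was 38.3% of the counts of the 10 genes. Most of it came from the locus on chromosome 4. Mir200a, Mir200b and Mir429 together had 101 CPM in replicate 2 and 122 CPM in replicate 1, against 25.2 CPM and 25.6 CPM for Mir200c and Mir141. The chromosome 4 locus therefore exceeded the chromosome 6 locus 4.01-fold in replicate 2 (exact 95% interval 3.42 to 4.72) and 4.77-fold in replicate 1 (4.03 to 5.69). The first sum holds 3 genes and the second 2.

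Mir429 led the family. It had 473 counts, or 62.0 CPM, in replicate 2 and 514 counts, or 80.6 CPM, in replicate 1 (71.3 ± 13.2 CPM, SD, n = 2). Mir200b followed with 232 counts, or 30.4 CPM, in replicate 2 and 215 counts, or 33.7 CPM, in replicate 1 (32.1 ± 2.35 CPM). Mir200a, between them on the chromosome, had only 65 counts, or 8.52 CPM, in replicate 2 and 49 counts, or 7.69 CPM, in replicate 1 (8.10 ± 0.588 CPM). The order Mir429, Mir200b, Mir200a held in both hearts, with intervals that did not overlap within a library. Mir429 exceeded Mir200a 7.28-fold in replicate 2 (exact 95% interval 5.61 to 9.58) and 10.5-fold in replicate 1 (7.82 to 14.4), although 908 nt separate the hairpins. Mir200b exceeded Mir200a 3.57-fold (2.70 to 4.78) and 4.39-fold (3.20 to 6.11) in the same order of hearts.

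At the other locus Mir200c had 164 counts, or 21.5 CPM, in replicate 2 and 137 counts, also 21.5 CPM, in replicate 1. Mir141 had 28 counts, or 3.67 CPM, in replicate 2 and 26 counts, or 4.08 CPM, in replicate 1 (3.87 ± 0.290 CPM, SD, n = 2). Mir200c therefore exceeded Mir141 5.86-fold in replicate 2 (exact 95% interval 3.91 to 9.09) and 5.27-fold in replicate 1 (3.45 to 8.35). At both loci the lower gene was the one with the AACACUG seed. Summed by seed, Mir200b, Mir200c and Mir429 had 114 CPM in replicate 2 and 136 CPM in replicate 1, while Mir200a and Mir141 had 12.2 CPM and 11.8 CPM. The ratio between the seed groups was 9.34 in replicate 2 (7.54 to 11.7) and 11.5 in replicate 1 (9.11 to 14.8).

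Mir200a and Mir141 also share the longest run of sequence. Their precursors share a run of 17 nt, within which lie the first 16 nt of both mature strands, whereas the longest run that any of the other 8 precursors shares with another microRNA precursor is 11 to 14 nt. Precursors that overlap one of the 10 in the genome, on either strand, were left out of this comparison. With these left out, none of the 10 precursors shares 20 nt with another. Reads with more than 1 match in the genome are not assigned to genes in the tables and made up 34.6% of reads in replicate 2 and 35.9% in replicate 1. Whether short reads of Mir200a and Mir141 are among them was not tested. Ratios between genes also include any difference in how well each sequence is captured in the library.

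**Figure D2:**
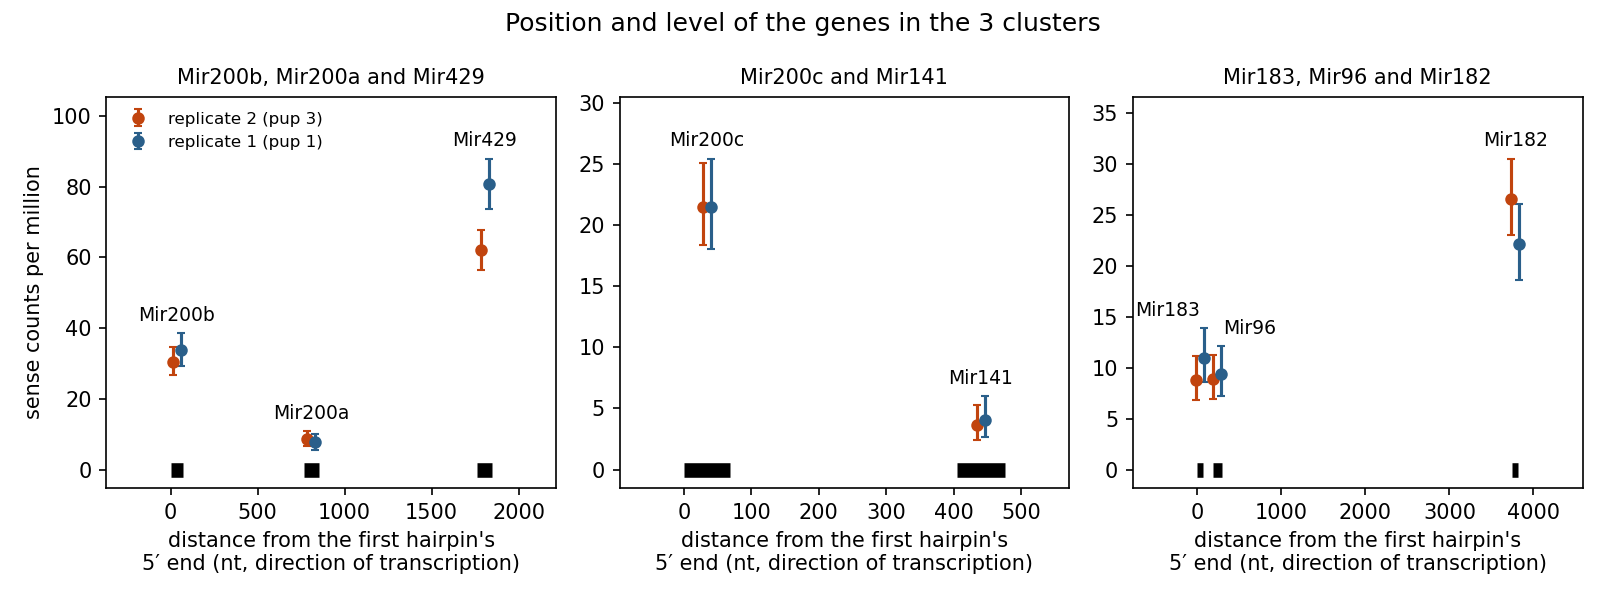
Level in CPM of each clustered gene against its distance in nt from the 5′ end of the first hairpin, in the direction of transcription; black bars are the hairpins to scale, orange points replicate 2 and blue points replicate 1, lines exact 95% intervals of counting error, and each panel has its own level axis from 0. Levels do not follow position: Mir200a, between Mir200b and Mir429, had 8.10 CPM, and Mir183 and Mir96 were close in level while Mir182 was higher.

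The Mir183 cluster had 44.3 CPM in replicate 2 (exact 95% interval 39.7 to 49.3) and 42.5 CPM in replicate 1 (37.6 to 47.9), a mean of 43.4 ± 1.26 CPM (SD, n = 2). The Mir200 family exceeded it 2.85-fold in replicate 2 (2.51 to 3.23) and 3.47-fold in replicate 1 (3.03 to 3.99), with 5 genes against 3. Mir182, the gene farthest downstream, gave most of the cluster. It had 203 counts, or 26.6 CPM, in replicate 2 and 141 counts, or 22.1 CPM, in replicate 1, which was 60.1% and 52.0% of the cluster. Mir96, the cluster member in which seed mutations cause hearing loss, had 68 counts, or 8.91 CPM, in replicate 2 and 60 counts, or 9.41 CPM, in replicate 1. Mir183 had 67 counts, or 8.78 CPM, in replicate 2 and 70 counts, or 11.0 CPM, in replicate 1.

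Mir96 and Mir183, whose hairpins are 116 nt apart, were not distinguishable at this depth. Their ratio was 1.01 in replicate 2 (exact 95% interval 0.714 to 1.44) and 0.857 in replicate 1 (0.597 to 1.23), so Mir96 was the higher by 1 count in one heart and the lower in the other. Mir182, 3453 nt beyond Mir96, exceeded it 2.98-fold in replicate 2 (2.26 to 3.99) and 2.35-fold in replicate 1 (1.73 to 3.23). Across the table, 109 pairs of adjacent detected microRNA genes lay on 1 strand within 10 kb of each other, with a median absolute log2 ratio of 2.77 (quartiles 0.90 and 4.72), a set chosen after the values were seen. The spread inside these 3 clusters lay within that range or below it. Reads with several matches in the genome are left out, so pairs that hold a gene with copies can have too large a ratio. An example is Mirlet7d and Mirlet7a-1, with an absolute log2 ratio of 6.48. How far such pairs raised the median and quartiles was not tested. By mean level over both hearts, Mir96 and Mir183 were among the closest, with only 1 of the other 108 pairs equal or closer. The counting intervals of their ratio, given above, are wide, so this place is uncertain. By the same measure, 60 of the 109 pairs had an equal or smaller ratio than Mir429 and Mir200a.

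**Figure D3:**
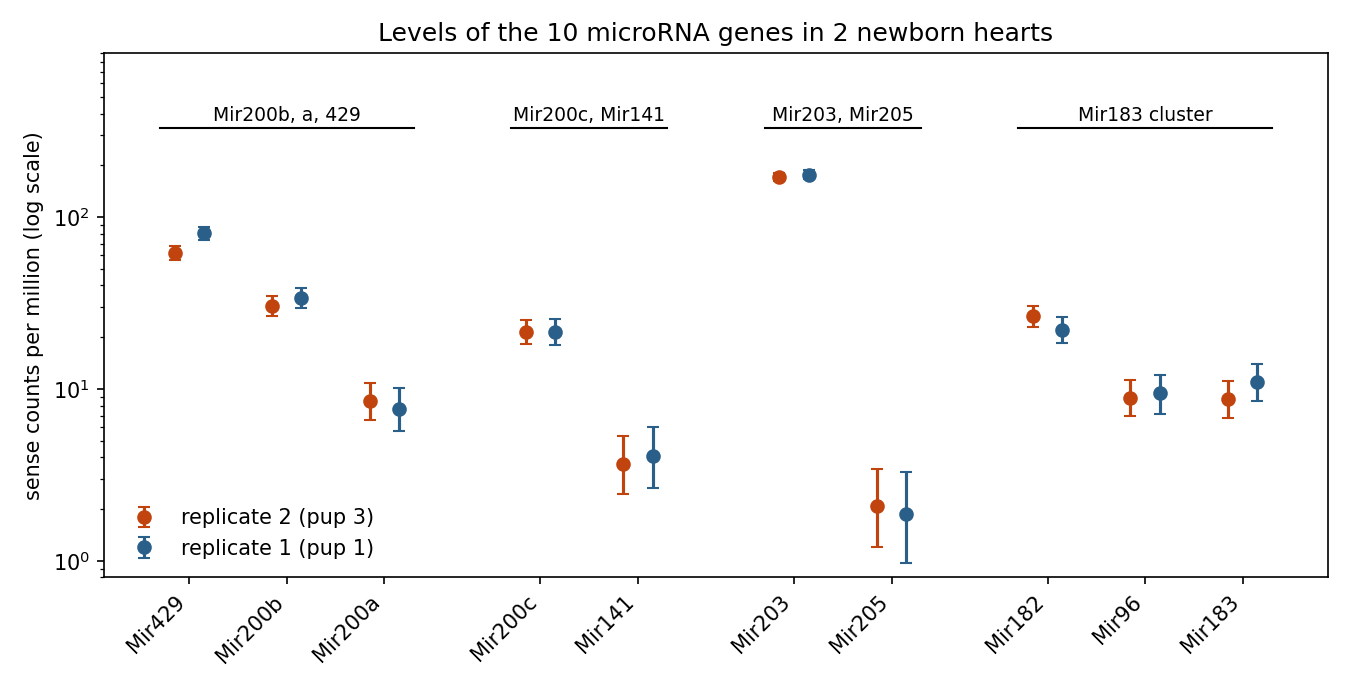
Level in CPM (log axis) of the 10 genes, by locus, in replicate 2 (orange, left of each pair) and replicate 1 (blue); points are single libraries and bars exact 95% intervals of counting error. Mir203 stands above 170 CPM and Mir205 near 2 CPM in both hearts, and Mir429 is the only gene whose intervals do not overlap between hearts.

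In order of mean level the genes were Mir203, Mir429, Mir200b, Mir182, Mir200c, Mir183, Mir96, Mir200a, Mir141 and Mir205. That order was the same in both hearts except for Mir183 and Mir96. Of the 9 ratios between neighbours in the order, 4 had exact 95% intervals above 1 in both libraries, namely Mir203 over Mir429, Mir429 over Mir200b, Mir200c over Mir183 and Mir200a over Mir141. The intervals of 2, Mir183 over Mir96 and Mir96 over Mir200a, included 1 in both libraries, and the other 3 included 1 in a single library. Genes of other loci with the nearest mean levels were taken as the most alike, over 2 hearts. They were Mir3071 (186 CPM) and Mir224 (168 CPM) around Mir203, Mir376c (74.8 CPM) and Mir486 (71.3 CPM) around Mir429, Mir338 and Mir129-2 around Mir200b, Mir668 and Mir218-2 around Mir182, and Mir670 and Mir8112 around Mir200c. Mir6236 and Mir1930 stood around Mir183, Mir5113 and Mir3072 around Mir96, Mir133a-1 and Mir190b around Mir200a, Mir615 and Mir1927 around Mir141, and Mir6975 and Mir1188 around Mir205. Reads with several matches in the genome are left out, so levels of genes with copies, such as Mir133a-1, Mir129-2 and Mir218-2, can be too low. Ranks and medians over all genes carry the same limit.

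Between the hearts, 1 of the 10 genes differed beyond counting error. Mir429 was 0.769 times as high in replicate 2 as in replicate 1 (exact 95% interval 0.677 to 0.873), a log2 ratio of -0.38, with an adjusted p of 0.000165 in a 2-sided exact binomial test of the counts against the ratio of the totals, with Benjamini-Hochberg adjustment over 435 genes. In the same test 31.0% of all genes tested differed, 19.1% higher in replicate 2 and 12.0% higher in replicate 1. Among the 214 genes with totals between 28 and 2437 counts, the range of these 10, 20.6% did. The share of the 10 genes is not above that background. The test compares 2 libraries, and with 1 library per heart the animal and the library preparation cannot be told apart. When the edgeR exact test was used with a preset biological coefficient of variation of 0.1, Mir429 no longer passed (adjusted p = 0.782), nor with 0.2 (adjusted p = 1). The spread estimated from these 2 libraries was 0.114.

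The other 9 genes did not pass, and their intervals show what the depth allows. Mir203 had a ratio of replicate 2 over replicate 1 of 0.974 (exact 95% interval 0.899 to 1.06). For Mir200c the ratio was 1.00 (0.792 to 1.26), for Mir200b 0.901 (0.746 to 1.09) and for Mir182 1.20 (0.965 to 1.50). The remaining intervals were wider, and that of Mir205 ran from 0.494 to 2.58, so a difference of that size was not detectable at this depth. In all, 3 of the 10 ratios, those of Mir182, Mir200a and Mir205, were above 1. The median log2 ratio was -0.06 for the 10 genes and 0.02 for all 435, and the median absolute log2 ratios were 0.15 and 0.21.

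Of the 3 neighbours on chromosome 4, Mir429 had a log2 ratio of -0.38, Mir200b of -0.15 and Mir200a of 0.14. The intervals of Mir200b and Mir200a include both 1 and the ratio of Mir429, so a difference among the 3 is not shown. Their sum had a ratio of 0.827 (exact 95% interval 0.747 to 0.915), the Mir200c and Mir141 sum 0.984 (0.794 to 1.22) and the Mir183 cluster 1.04 (0.885 to 1.23). In the Mir183 cluster, Mir182 exceeded Mir183 3.03-fold in replicate 2 (2.29 to 4.06) and 2.01-fold in replicate 1 (1.50 to 2.72). Markers of cardiac muscle and of other cell types were read in the same test. The endothelial Mir126a had a ratio of replicate 2 over replicate 1 of 0.848 and the erythroid Mir451a 1.33. The fibroblast markers Mir21a and Mir214 had 0.912 and 1.03, and the smooth muscle markers Mir143 and Mir145a 0.931 and 0.992. The cardiac muscle markers Mir208a, Mir208b and Mir499 had 0.778, 1.06 and 0.949, and the leukocyte Mir223 had 0.968. Of these 10 markers, Mir214, Mir145a and Mir223 did not pass the test (exact binomial adjusted p of 0.2, 0.675 and 0.436). The others did, beside 31.0% of all genes tested. Most genes tested had fewer counts than these markers, and the test passes smaller differences at higher counts. A share among genes with counts like those of the markers was not taken. None of the 10 markers passed the edgeR exact test with a preset biological coefficient of variation of 0.1, where 1 of 435 genes did. With 0.2 no gene passed. The part of these markers in the ratio of Mir429 was not tested.

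**Figure D4:**
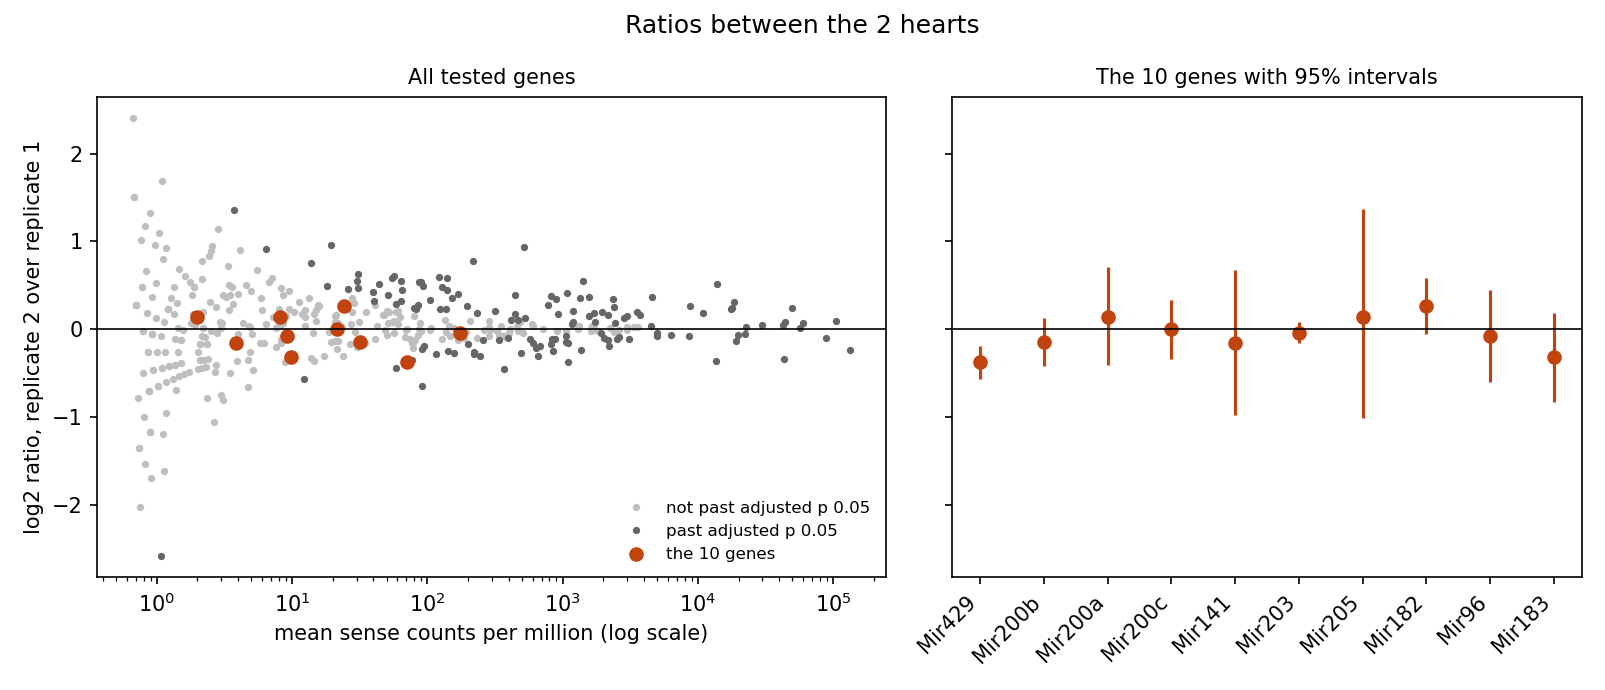
Log2 ratio of replicate 2 over replicate 1 for the 435 genes tested against mean level in CPM (left, log axis; dark points passed an adjusted p of 0.05) and for the 10 genes with exact 95% intervals (right). Mir429, at -0.38, is the only 1 of the 10 whose interval leaves out 0.

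A list of 15 further microRNAs of epithelia, ciliated cells, the eye or endocrine cells was read in the same way. Of these, 13 were detected in both hearts, and Mir449b and Mir449c had 0 counts in both, which allows up to 0.393 CPM in replicate 2 and 0.471 CPM in replicate 1. Mir449a, which shares their locus and is a microRNA of ciliated cells, had 19.9 CPM in replicate 2 and 21.8 CPM in replicate 1. The most abundant of the list were Mir215, known from gut and kidney, with 607 ± 9.53 CPM, and Mir708, with 262 ± 1.30 CPM (SD, n = 2). Mir375, a microRNA of endocrine pancreas, had 17 and 10 counts in the same order of hearts. The detected genes had a median of 77.1 CPM, above the 15.7 CPM of the 10 genes. Between the hearts 3 of the 13 differed by the same exact binomial test, beside 31.0% of all genes. Mir194-1 was 1.26 times and Mir194-2 1.22 times as high in replicate 2, with adjusted p of 6.16e-05 and 0.0189, and Mir34b was 0.675 times as high, with an adjusted p of 0.0357. None of the 3 passed the edgeR exact test with a preset coefficient of variation of 0.1, where their adjusted p were 0.884, 1 and 0.758, or of 0.2, where each was 1. Mir194-1 and Mir194-2 are copies whose reads can be hard to tell apart, so their counts are uncertain.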

How the data were processed

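Whole-number read counts per microRNA gene were deposited by the authors, without normalization, made from 1 alignment per library on mm10 with GENCODE M4, per the text files that accompany them. The aligner, the counter and trimming were not given in the sources used here. The 3 count columns have no header: the first equals the sum of the others in every gene row, so the second (92.8% and 92.9% of gene counts in replicates 2 and 1) was read as the gene's strand and the third as the opposite one. Rows naming no gene (unmapped reads 15.5% and 12.6%, several matches 34.6% and 35.9%) were left out. Names came from GENCODE M21, by identifier without version (1894 of 1973 matched; 2 of the 10 genes, Mir200b and Mir200c, carry a newer version number there).

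CPM used the sense totals. Shares and ratios carry exact 95% intervals. Genes with 10 or more counts together were compared between libraries by 2-sided exact binomial tests, Benjamini-Hochberg adjusted, threshold 0.05, with 0.5 counts added for log2 ratios. The procedure was tested on simulated data that held counting error only. Such data cannot show how the test does with spread between animals or libraries. The 10 genes and the lists were chosen with earlier results of these data known. The genes named are the 10, those next to each in mean level and the 2 most abundant of the further list. Mir208a, Mir208b and Mir499 were named as the check of the tissue. Mir34b, Mir194-1, Mir194-2, Mir375, the Mir449 genes and markers of other cell types were added after their values were seen. So were Mir1a-1, Mir133a-2, Mir302a, Mirlet7d and Mirlet7a-1. Alternatives were both strands, TMM and DESeq2 size factors, other totals and minimums, 5 added counts, preset spread in the edgeR exact test and each heart alone. Tools were Python 3.11.15, SciPy 1.17.1, pandas 2.3.3, NumPy 2.4.6, matplotlib 3.10.9, R 4.3.3, edgeR 4.0.16 and DESeq2 1.42.0.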

Additional observations from a re-analysis of the deposited data

Results flagged for a closer look

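Counts on the strand opposite to a gene entered none of the main comparisons and were used only in alternatives of the processing, given below. They were above the limit of 3 counts at 3 of the 10 genes, with 36 counts in replicate 2 and 26 in replicate 1 at Mir203, 5 in replicate 1 at Mir200a (3 in replicate 2), and 4 in replicate 1 at Mir182 (0 in replicate 2).

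At Mir203 the opposite-strand counts were 2.67% of all counts there in replicate 2 (95% interval by the exact Clopper-Pearson method, 1.88 to 3.68) and 2.26% in replicate 1 (1.48 to 3.29). Of 247 genes with 100 or more counts on both strands together in each library, 15 had over 2% on the opposite strand in both, and the median was 0%. RefSeq (GRCm38.p6) places miR-203b on the minus strand over the Mir203 hairpin, which itself is on the plus strand. Its arms lie on chromosome 12 at 112130887 to 112130908 (3p) and 112130927 to 112130946 (5p), within the hairpin, and are shown with the seed in capitals because the opposite-strand counts fall on this hairpin.
miR-203b-3p: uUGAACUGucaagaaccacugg
miR-203b-5p: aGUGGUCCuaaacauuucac
The tables do not say where within the hairpin a count falls, so which arm, if either, these counts came from was not tested.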

How the results depend on the processing

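The summed level of 356 CPM was 336 CPM with counts of both strands, 331 CPM with opposite-strand counts added to the total and 411 CPM with Mir126a left out of the total, and did not move beyond the spread between hearts with TMM or DESeq2 size factors. Of the single levels, 14 of 70 alternatives moved a value by more than that spread. The alternatives with each heart alone could not, because a single heart always lies closer to the mean of 2 than the SD. TMM and DESeq2 size factors hardly change a mean over both hearts, so these alternatives say little about stability. All 10 genes were detected with a minimum of 1 count and 5 with 100. Between the libraries 135 genes and 1 of the 10 differed. With edgeR and a biological coefficient of variation set to 0.1, its exact test gave 1 and 0 (29 and 0 at an unadjusted p under 0.05), and set to 0.2 it gave 0 and 0 (4 and 0 unadjusted). The setting of 0.1 is about the spread of the same libraries, 0.114, and 0.2 is above it, so few calls do not show likeness. The log2 ratio of Mir429 was -0.38 in both, with adjusted p of 0.782 and 1. With each heart left out, the log2 ratio of Mir96 over Mir183 ran from -0.222 to 0.021, the one ratio within a library that changed sign. No paired analysis was possible because there is 1 group of 2 hearts. Leaving out a heart leaves no comparison between hearts. Depth limits Mir205 and Mir141 most, with 12 to 28 counts per library.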
